A study of Homo sapiens with 4 samples.

Results

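The autophagy initiation complex genes are the 10 genes that encode the ULK kinase complex (ULK1, ATG13, ATG101 and RB1CC1) and the class III phosphatidylinositol 3-kinase complexes with their close partners (PIK3C3, PIK3R4, BECN1, ATG14, UVRAG and AMBRA1). They were chosen by function, from the 20033 protein-coding genes of the human annotation GENCODE on GRCh38, and every RNA polymerase II (Pol II) peak inside a member or within 2 kb of it was recorded. The peaks came from SK-OV-3, an established human ovarian cancer cell line, in which Pol II was mapped by chromatin immunoprecipitation and sequencing (ChIP-seq). One population stably carried a lentiviral short hairpin RNA against RRN3 (shRRN3), an initiation factor of RNA polymerase I, and the control population carried a hairpin against the bacterial gene LacZ (shLacZ). Both populations thus carried a hairpin, and which RRN3 hairpin was used for ChIP-seq is not given in the sources used here. Each group had 1 Pol II library and 1 input library, and the inputs were not analysed here. There were no replicates, so no difference between the lists could be set against a spread between samples, and none was tested.

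Autophagy encloses cytoplasm in a double membrane and delivers it to the lysosome. Under starvation the ULK kinase complex becomes active and gathers where the new membrane forms. It then drives the class III phosphatidylinositol 3-kinase complex, whose lipid product recruits the later autophagy proteins. ATG14 and UVRAG occupy the same place in separate versions of the lipid kinase complex, the former acting in autophagosome formation and the latter mainly on endosomes. Pol II gathers at the starts of active genes, and a peak marks a stretch of DNA with more Pol II fragments than its background.

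The 2 lists were of unequal length. The shLacZ list held 4014 peaks with a median width of 306 bp, and the shRRN3 list held 14363 peaks with a median width of 432 bp. Their read depth is unknown from peak lists, and each peak has a score from the authors' peak caller that depends on depth. Scores were therefore ranked within a list, apart from a score limit among the alternatives at the end. Among 8 markers of the line and its tissue, PAX8 had a start peak, with its midpoint within 1 kb of the outer bound of the annotated gene, in both lists. KRT8 and KRT18 shared 1 start peak, in shRRN3 only. EPCAM had one in shRRN3 only, at its outer bound and not at its canonical start, KRT7 had a peak inside its window in shRRN3 only, and ERBB2, KRT19 and WT1 had no peak in either. Of 8 markers of blood, liver, muscle, nerve and stroma, 0 had a start peak in either list (0% to 36.9%). SYT1, a neuronal gene, had peaks inside its window, 2 in shLacZ and 4 in shRRN3. Of all protein-coding genes 7.56% had a start peak in shLacZ and 23.7% in shRRN3. The intervals of both marker sets included these shares, so the counts cannot decide the cell type.

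The DNA just before the start of 7 members is shown, for 6 of them because it lies under or beside the peaks described next, and for ATG14 as a member without a peak. It was taken from RefSeq promoter entries on GRCh38.p14, which were used for 8 of the 10 genes, without RB1CC1 and UVRAG. Only bases before the start that lie in no annotated exon are printed, 5′ to 3′ on the strand of the gene, so the ATG101 run is short. The ULK1 run is on the plus strand of chromosome 12 (131894372 to 131894621), that of ATG13 on the plus strand of chromosome 11 (46617303 to 46617526) and that of ATG101 on the plus strand of chromosome 12 (52069943 to 52069975). The PIK3C3 run is on the plus strand of chromosome 18 (41954984 to 41955233), that of PIK3R4 on the minus strand of chromosome 3 (130746830 to 130747079), that of ATG14 on the minus strand of chromosome 14 (55411831 to 55412080) and that of AMBRA1 on the minus strand of chromosome 11 (46594126 to 46594273). Capitals mark matches on either strand to GGGCGG, known as the GC box, to the CCAAT box, to the E box written CACGTG, to the ETS motif written CCGGAAG and to the YY1 motif written CCATNTT.
ULK1: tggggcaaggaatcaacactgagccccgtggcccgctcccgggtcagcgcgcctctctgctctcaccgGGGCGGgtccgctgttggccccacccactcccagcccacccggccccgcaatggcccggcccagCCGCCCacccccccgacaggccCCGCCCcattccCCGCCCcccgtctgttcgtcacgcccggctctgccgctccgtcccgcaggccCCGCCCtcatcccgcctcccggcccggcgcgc
ATG13: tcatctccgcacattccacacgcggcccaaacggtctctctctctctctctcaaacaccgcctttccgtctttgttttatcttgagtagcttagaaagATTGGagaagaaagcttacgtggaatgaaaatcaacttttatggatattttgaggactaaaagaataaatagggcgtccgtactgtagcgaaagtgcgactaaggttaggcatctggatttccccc
ATG101: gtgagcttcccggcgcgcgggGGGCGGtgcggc
PIK3C3: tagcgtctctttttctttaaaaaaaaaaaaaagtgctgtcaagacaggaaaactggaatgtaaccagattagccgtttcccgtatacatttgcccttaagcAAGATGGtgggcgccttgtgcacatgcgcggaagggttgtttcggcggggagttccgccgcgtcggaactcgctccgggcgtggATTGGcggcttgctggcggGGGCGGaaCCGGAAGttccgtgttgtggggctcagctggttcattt
PIK3R4: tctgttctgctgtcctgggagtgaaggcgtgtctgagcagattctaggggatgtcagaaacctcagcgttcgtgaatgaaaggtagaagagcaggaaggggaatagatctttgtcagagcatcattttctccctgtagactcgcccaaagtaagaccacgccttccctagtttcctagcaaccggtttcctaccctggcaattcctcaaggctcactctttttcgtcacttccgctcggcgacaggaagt
ATG14: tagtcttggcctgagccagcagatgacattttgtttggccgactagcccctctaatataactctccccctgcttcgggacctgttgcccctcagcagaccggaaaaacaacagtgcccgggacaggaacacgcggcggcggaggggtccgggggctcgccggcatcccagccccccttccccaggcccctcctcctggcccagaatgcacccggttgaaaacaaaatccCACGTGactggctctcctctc
AMBRA1: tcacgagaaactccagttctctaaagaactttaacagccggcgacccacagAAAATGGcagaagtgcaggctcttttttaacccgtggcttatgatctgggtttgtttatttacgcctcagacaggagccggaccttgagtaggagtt

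These promoters differed in base composition. Over the 300 bases of each entry (250 before and 50 after the start), the GC share of the 8 members ran from 49.0% in ATG13 to 78.3% in ULK1, with a median of 55.5% against 63.7% over 15344 promoters. ULK1 was the GC-rich end of the group, since 93.4% of all promoters had a lower GC share, and its entry held 5 GC boxes. AMBRA1 and PIK3R4 both stood at 53.0%. The ratio of observed to expected CpG had a median of 0.805 in the members and 0.783 over all promoters.

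Motif matches in the same 300 bases are a description of the letters only. The start in the BECN1 entry lies 403 bp inside the canonical BECN1 start, whereas the other members' entries use the canonical start. GGGCGG was found in 3 of 8 members (ATG101, PIK3C3 and ULK1) and in 61.8% of all promoters. CCAAT was found in 3 (ATG13, BECN1 and PIK3C3) against 36.6%, CCGGAAG in 3 (ATG101, BECN1 and PIK3C3) against 14.8%, and CCATNTT in 2 (AMBRA1 and PIK3C3) against 14.9%. PIK3C3 carried all 4 of these, and PIK3R4 carried none of the 8 motifs searched. CACGTG was found in ATG14 alone among the members, and in 8.86% of all promoters. TATAAA (9.42% of all promoters), TGACGTCA (2.76%) and GCGCATGC (4.38%) were found in 0 of 8. The 8 motifs do not contain one another.

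The members with a peak were then counted. In shLacZ 1 of 10 members had a peak in the gene or 2 kb around it, ATG101, or 10% (95% exact interval 0.253% to 44.5%), where 13.4% of all protein-coding genes had one. In shRRN3 7 of 10 had one, or 70% (34.75% to 93.3%), where 36.9% of all genes had one. The missing members were RB1CC1, ATG14 and UVRAG. The shLacZ share was close to its background, and the shRRN3 interval included its background. Intervals here cover counting error over genes only, and a larger fraction of cells with Pol II at a gene cannot be told apart from more Pol II per cell.

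The same genes were counted with start peaks as defined above. There were again 1 member in shLacZ (background 7.56%) and 7 in shRRN3 (background 23.7%), whose interval, 34.75% to 93.3%, lay above the background. The outer bound is the start of the longest-reaching transcript, so the count was repeated with the start of the canonical transcript, the one the annotation marks as representative. This gave ATG101 in shLacZ (background 8.18%) and 6 members in shRRN3, all but BECN1 of the 7 (25.4%), or 60% with an interval of 26.2% to 87.8%, the lower bound of which was just above the background. Of these 6, ULK1, ATG13, PIK3C3, PIK3R4 and AMBRA1 had such a peak in shRRN3 alone, 5 of 10 (18.7% to 81.3%) where 18.4% of all genes did. When a peak counted only for the gene whose canonical start was nearest to its midpoint, ATG13 also dropped out and 5 members were left in shRRN3, where 22.4% of all genes had such a peak. The interval for 5 of 10 included that background. An excess of autophagy genes with start peaks in shRRN3 had been seen in these data before the 10 genes were set apart, so these shares are not independent support for it.

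**Figure D1:**
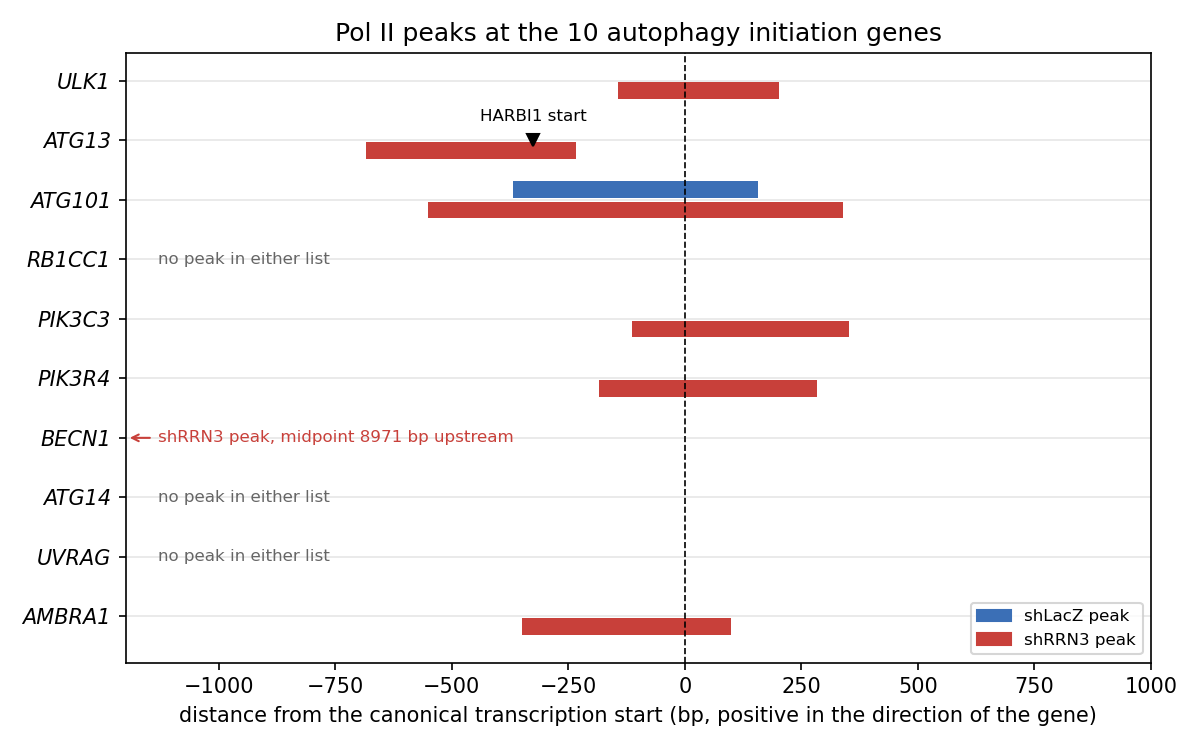
Horizontal bars show each listed Pol II peak of the 10 genes against the distance from the canonical start in bp, with shLacZ in blue and shRRN3 in red, and a black triangle marks the HARBI1 start. The only blue bar is at ATG101, 5 red bars cross the start, the ATG13 bar ends 233 bp before it, and the BECN1 peak is off the axis at 8971 bp upstream.

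All 8 recorded peaks lay at gene starts. No member had more than 1 peak in a list, and 0 of 10 had a peak in its window away from the start in either list. In shRRN3 20.1% of all genes had one, and the member interval, 0% to 30.85%, included that share. A peak within 0.5 kb of the gene end was likewise found at 0 of 10 members, against 1.96% of all genes in shRRN3. Of the 5090 genes with a canonical start peak in shRRN3, 36.8% also had a peak away from the start, and of the 6 such members 0 did (interval 0% to 45.9%). RB1CC1, PIK3C3, UVRAG and AMBRA1 each span more than 100 kb, and RB1CC1 and UVRAG had no peak at all. Of the 3667 protein-coding genes of that length, 36.1% had a peak away from the start in shRRN3. A part of gene length was not tested. By gene region, with all annotated exons, the shLacZ peak midpoint was in an exon, and the shRRN3 midpoints were in an exon at 5 members and upstream at 2 (ATG13 and AMBRA1). None was in an intron or downstream.

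Among the genes of the ULK complex, ULK1 encodes the serine/threonine kinase itself. ULK1 (ENSG00000177169, chromosome 12, 131894622 to 131923150, plus strand, 7 transcripts) had no peak in shLacZ, where the closest midpoint was 1016 kb from its start. Its shRRN3 peak, at 131894478 to 131894825, was 348 bp wide with a score of 53.44 and ranked 12564 of 14363. It was the narrowest and lowest-scoring of the 7 member peaks, with 12.3% of the list below it. Its midpoint was 30 bp past the start, and the peak covered the last 144 bases of the GC-rich sequence printed above.

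ATG13 is the adaptor that holds ULK1 and RB1CC1 together. ATG13 (ENSG00000175224, chromosome 11, 46617527 to 46674818, plus strand, 31 transcripts) had no shLacZ peak within 228.8 kb of its canonical start. Its shRRN3 peak, at 46616869 to 46617320, was 452 bp wide with a score of 60.16 and ranked 10209. The peak reached into the first bases of the printed sequence and stopped 233 bp before the canonical start, and it covered 0 of the 28 distinct starts annotated for ATG13. It did cover the canonical start of HARBI1 (ENSG00000180423, chromosome 11, 46602861 to 46617909), a gene derived from a transposase that is read in the opposite direction. The canonical starts of the neighbours are 326 bp apart, and the peak midpoint lay 132 bp inside HARBI1 and 458 bp before ATG13. By canonical starts the peak is nearer to HARBI1. By outer bounds it is nearer to ATG13, with the midpoint 432 bp from the bound of ATG13 and 814 bp from that of HARBI1. The lists hold no strand that would assign it to either gene.

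ATG101 stabilises ATG13 and was the only member with a peak in both lists. ATG101 (ENSG00000123395, chromosome 12, 52069246 to 52077495, plus strand, 7 transcripts) is also the shortest member, at 8.25 kb. In shLacZ its peak, at 52069609 to 52070136, was 528 bp wide with a score of 50.15 and ranked 3990 of 4014, with 0.548% of the list below it. In shRRN3 its peak, at 52069427 to 52070318, was 892 bp wide with a score of 123.6 and ranked 2693 of 14363. The peak was thus among the last entries of the shLacZ list and had 81.3% of the shRRN3 list below it. Both midpoints fell on the same base, 105 bp before the canonical start, and the shLacZ peak lay wholly within the shRRN3 peak, sharing its 528 bp. Each covered 6 of the 7 annotated starts and the printed sequence with its GC box. The canonical start lies 732 bp inside the outer bound of the gene, so with a limit of 0.5 kb from the outer bound ATG101 no longer counted in either list.

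RB1CC1 (also called FIP200) is the large scaffold on which the ULK complex assembles. RB1CC1 (ENSG00000023287, chromosome 8, 52622458 to 52745843, minus strand, 10 transcripts) had no peak in either list. The nearest midpoints lay 1129 kb from its canonical start in shLacZ, by the start of ATP6V1H, and 815.2 kb away in shRRN3, by the start of PCMTD1. A gene without a listed peak did not pass the threshold of that list, which does not show that Pol II was absent.

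**Figure D2:**
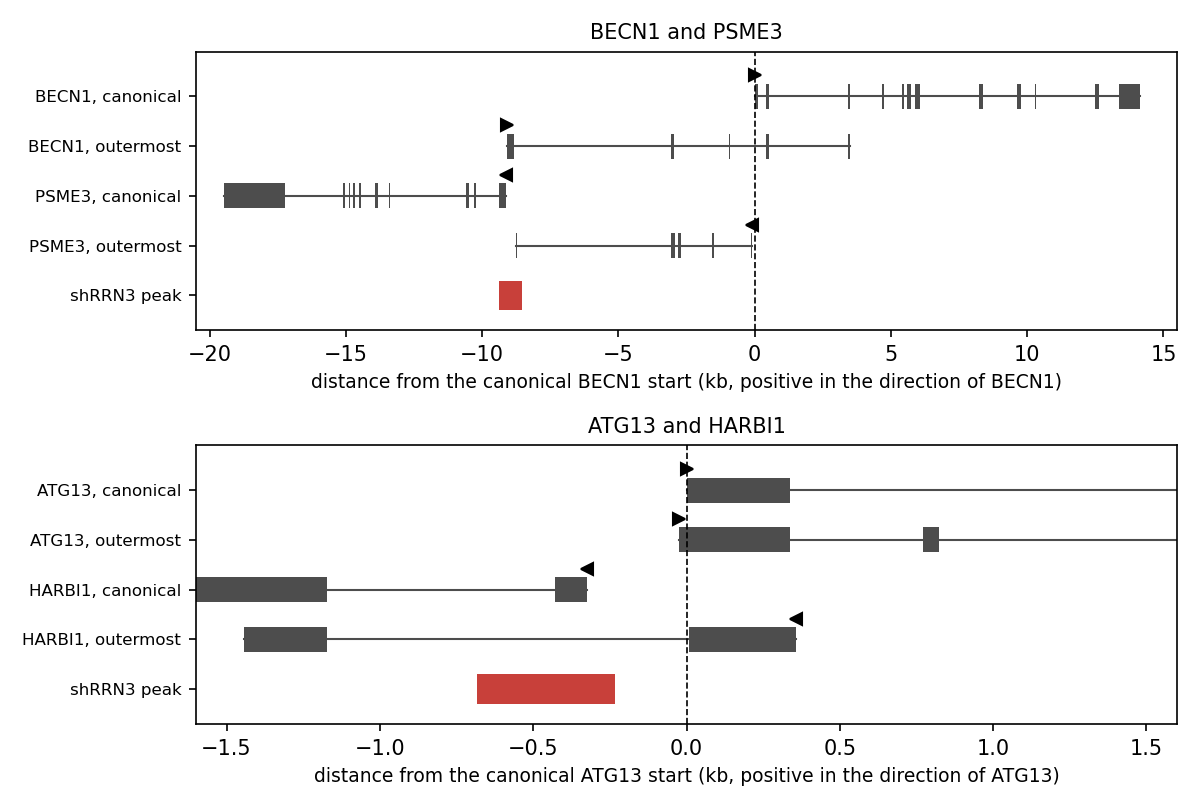
Grey boxes are exons, thin lines transcripts, black triangles starts with the direction of reading, and red boxes the shRRN3 peak, over the distance in kb from the canonical start of BECN1 (top) and of ATG13 (bottom). The peaks cover the canonical starts of PSME3, 9115 bp from that of BECN1, and of HARBI1, 326 bp from that of ATG13.

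Of the lipid kinase core, PIK3C3 (VPS34) is the catalytic subunit that makes phosphatidylinositol 3-phosphate. PIK3C3 (ENSG00000078142, chromosome 18, 41955234 to 42087830, plus strand, 16 transcripts) had no shLacZ peak, and the nearest listed midpoint was 6457 kb from its start. Its shRRN3 peak, at 41955121 to 41955586, was 466 bp wide with a score of 75.34 and ranked 7060. This was the median member peak by width, score and rank. The midpoint was 120 bp past the start, and the peak covered 5 of 16 annotated starts and the last 113 bases of the printed sequence, which hold its GC box, CCAAT box and ETS matches.

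PIK3R4 (VPS15) is the regulatory subunit that anchors PIK3C3. PIK3R4 (ENSG00000196455, chromosome 3, 130678934 to 130746829, minus strand, 8 transcripts) had no shLacZ peak, and the nearest midpoint was 186.8 kb from its start. Its shRRN3 peak, at 130746546 to 130747014, was 469 bp wide with a score of 137.76 and ranked 2173. This was the highest-scoring member peak, with 84.8% of the list below it, at a promoter without any of the 8 motifs. The midpoint was 49 bp past the start.

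BECN1 (Beclin 1) is the scaffold subunit of the lipid kinase complexes that binds ATG14 or UVRAG. BECN1 (ENSG00000126581, chromosome 17, 42810134 to 42833350, minus strand, 22 transcripts) had no shLacZ peak within 165.0 kb of its canonical start. Its shRRN3 peak, at 42832834 to 42833671, was 838 bp wide with a score of 84.64 and ranked 5699. The midpoint lay 97 bp past the outer bound of the gene but 8971 bp before the canonical BECN1 start at 42824282. It covered 2 of the 19 distinct starts annotated for BECN1, and it covered the canonical start of PSME3 (ENSG00000131467, chromosome 17, 42824385 to 42843760, plus strand) and 11 PSME3 transcript starts in all. PSME3 encodes the proteasome activator PA28 gamma and is read in the opposite direction. The peak midpoint was 144 bp before the canonical PSME3 start, and neither list had a peak within 1 kb of the canonical BECN1 start. The count of BECN1 among members with a start peak therefore rested on the 2 starts that lie beside the canonical PSME3 start.

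ATG14 directs the lipid kinase to sites of autophagosome formation. ATG14 (ENSG00000126775, chromosome 14, 55366391 to 55411830, minus strand, 2 transcripts) had no peak in either list. The nearest shRRN3 midpoint was 35.2 kb from its start, nearest to TBPL2, and the nearest shLacZ midpoint was 308.4 kb away. This was the smallest gap among the 3 members without a peak in shRRN3. The member peak farthest outside its gene, at ATG13, was 207 bp from it, so with no window around the gene 6 members counted in shRRN3, and with 5 kb the count was again 7.

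UVRAG is the alternative subunit of the endosomal complex and was the longest member, at 329 kb. UVRAG (ENSG00000198382, chromosome 11, 75815210 to 76144232, plus strand, 9 transcripts) had no peak in either list. The nearest midpoints, 46.7 kb from its start in shLacZ and 46.6 kb in shRRN3, belonged to overlapping peaks at the start of DGAT2, an enzyme of triglyceride synthesis. ATG14 and UVRAG thus lacked a peak in shRRN3, while the 3 core subunits had one, BECN1 by its outer bound only. Of all protein-coding genes 36.9% had a peak in their window in shRRN3, so most genes lacked one. A difference by role in the complexes was not tested.

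AMBRA1 binds BECN1 and also serves as a substrate receptor of a cullin ubiquitin ligase. AMBRA1 (ENSG00000110497, chromosome 11, 46396414 to 46594125, minus strand, 13 transcripts) had no shLacZ peak within 252 kb of its start. Its shRRN3 peak, at 46593923 to 46594372, was 450 bp wide with a score of 68.1 and ranked 8340. The midpoint was 125 bp before the canonical start, and the peak covered 6 of 13 annotated starts and the whole printed sequence with its YY1 match. AMBRA1 and ATG13 lie close together on chromosome 11, with canonical starts 23.5 kb apart and HARBI1 between them, so they are not independent places in the genome.

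**Figure D3:**
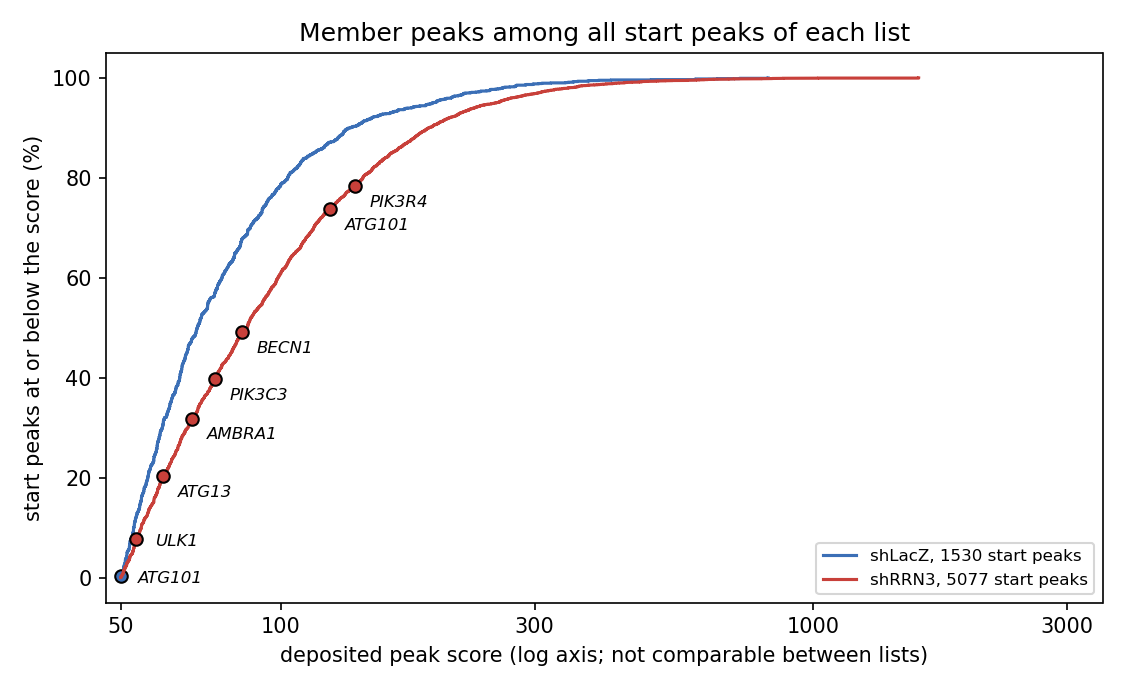
Each curve gives the share in % of start peaks of a list at or below a deposited score (log axis), for 1530 shLacZ peaks in blue and 5077 shRRN3 peaks in red, with points for the member peaks. The 7 red points run from ULK1 at 53.44 to PIK3R4 at 137.76, and the blue ATG101 point is near the foot of the shLacZ curve at 50.15.

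Set against other start peaks of the same list, the member peaks were of middling score. Over the 5077 shRRN3 peaks within 1 kb of an outer bound or canonical start the median score was 86.3 and the highest was 1580, while the 7 member peaks had a median of 75.3. Their widths had a median of 466 bp against 608 bp. PIK3R4 had 78.4% of these start peaks below it, ATG101 73.7%, BECN1 49.1%, PIK3C3 39.55%, AMBRA1 31.6%, ATG13 20.3% and ULK1 7.33%. ATG101 and BECN1 were wider than most, with 79.0% and 74.9% of start peaks narrower, and the other 5 had between 11.9% and 29.7% narrower. The order of scores has no error of its own with 1 library.

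The overlap with shLacZ was read at the same scores, since weak start peaks of the longer list seldom had a counterpart. By quintile of score, from the lowest to the highest, 9.74%, 10.7%, 18.9%, 28.2% and 54.7% of shRRN3 start peaks were overlapped by a shLacZ peak. ULK1 fell in the lowest quintile, ATG13, PIK3C3 and AMBRA1 in the next, BECN1 in the middle one, and ATG101 and PIK3R4 in the fourth. No member reached the highest quintile, in which most shRRN3 start peaks had a shLacZ counterpart. In shLacZ the ATG101 peak was in the lowest quintile, of which 70.6% was overlapped by a shRRN3 peak. A longer list and the shRRN3 hairpin came together here, so their parts in the 6 unmatched member peaks cannot be told apart. Shortening the shRRN3 list to its top 3920 peaks by score, the number that shLacZ had on chromosomes 1 to 22, X and Y, left 2 of 10 members with a peak, ATG101 and PIK3R4, or 20% (2.52% to 55.6%), where 15.7% of all genes had one. That share was close to its background. Start peaks of the shortened list were not set against a share of all genes, so the start-peak counts were not compared at equal list length.

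The rest of the pathway was described with lists chosen by function. The regulators of the complexes include subunits of the energy sensor AMPK and of the growth kinase complex mTORC1. Of 15 regulators, 1 had a start peak in shLacZ and 5 had one in shRRN3, by either definition of the start. The backgrounds were 7.56% and 23.7% by the outer bound, and 8.18% and 25.4% by the canonical start. The shLacZ gene was PRKAA2, a catalytic AMPK subunit, with a score of 50.63 and rank 3881 of 4014. PRKAA2 had no start peak in shRRN3, but it had 2 peaks inside its window in each list. The best-ranked in shRRN3 were PRKAG1, a gamma subunit of AMPK, at rank 1548, MTOR at rank 2727 and PRKAB2, a beta subunit of AMPK, at rank 7407.

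Genes of the ATG9, ATG2 and WIPI group act in membrane supply and lipid transfer. Of 11, 0 had a start peak in shLacZ (background 7.56%) and 2 had one in shRRN3 (background 23.7%). These were VMP1 at rank 856 and TMEM41B at rank 9811, both encoding lipid scramblases of the endoplasmic reticulum. In its window VMP1 had 14 peaks in shLacZ, none of them at its start, and 24 in shRRN3. With canonical starts the count in shRRN3 was 3, since WDR45, which is among the 11, also counted. Only its mention by name came after its values were seen.

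Of 18 conjugation genes, which attach ATG8 proteins to lipid, 2 had a start peak in shLacZ (background 7.56%) and 8 in shRRN3 (background 23.7%). The shLacZ genes were GABARAP, an ATG8 protein, at rank 684 and ATG10, the E2-like enzyme for ATG12, at rank 1104, and both also had a start peak in shRRN3. The best-ranked in shRRN3 were ATG12 at rank 1285, ATG10 at rank 2434 and ATG16L2 at rank 4346. With canonical starts the shLacZ count was 3, since MAP1LC3B, which is among the 18, also counted. Its mention by name likewise came after its values were seen.

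**Figure D4:**
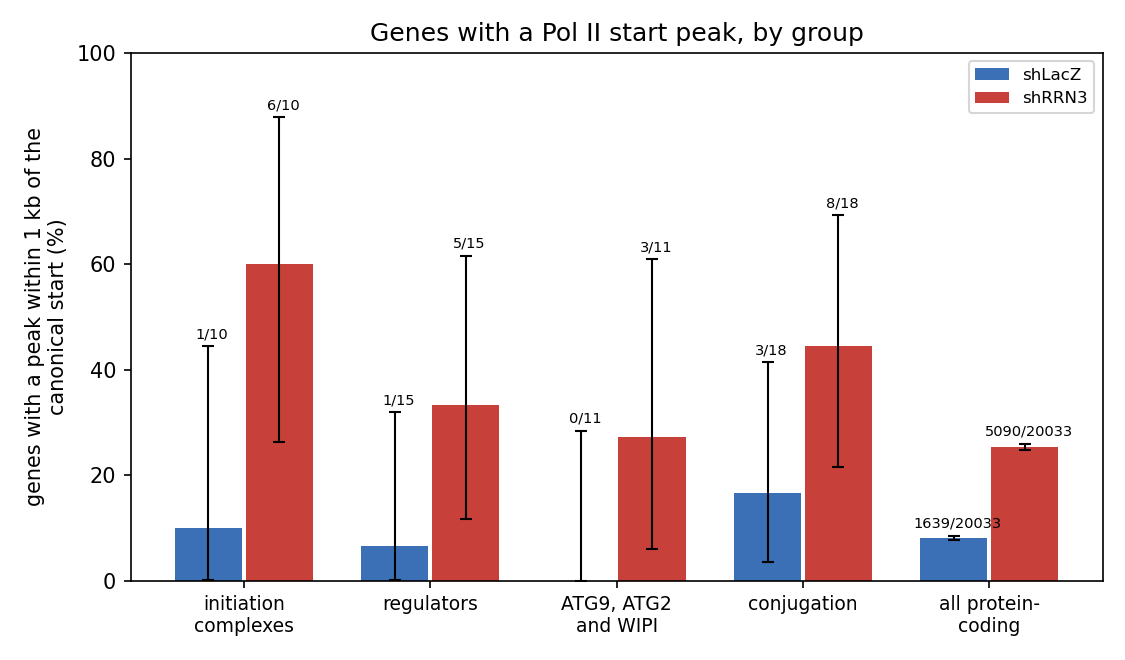
Bars give the share in % of genes with a peak midpoint within 1 kb of the canonical start, shLacZ in blue and shRRN3 in red, with 95% exact intervals as error bars (counting error over genes only) and the counts above. The initiation genes stand at 10% and 60%, beside 8.18% and 25.4% of all 20033 protein-coding genes.

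On the canonical starts, the initiation genes had 6 of 10 in shRRN3 (60%, 26.2% to 87.8%), the conjugation genes 8 of 18 (44.4%, 21.5% to 69.2%), the regulators 5 of 15 (33.3%, 11.8% to 61.6%) and the ATG9, ATG2 and WIPI group 3 of 11 (27.3%, 6.02% to 60.97%). The intervals of all 4 groups overlapped one another. Of all genes 25.4% had such a peak. That share lay inside the intervals of the conjugation genes, the regulators and the ATG9, ATG2 and WIPI group. It was just below the lower bound of the initiation genes. Unlike the members, the other groups also had peaks away from the start in shRRN3, at 5 of 15 regulators, 2 of 11 genes of the ATG9, ATG2 and WIPI group and 5 of 18 conjugation genes. The interval for 0 of 10 members, 0% to 30.85%, included the 27.8% of the conjugation genes and the 20.1% of all genes. It also included the 18.2% of the ATG9, ATG2 and WIPI group, but the 33.3% of the regulators lay above it. The regulators' own interval, 11.8% to 61.6%, overlapped that of the members, and the difference was not tested.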

How the data were processed

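Pol II peaks were analysed in 1 shLacZ and 1 shRRN3 library of SK-OV-3 cells. The deposited lists give coordinates, a name and a score for every peak. The authors called peaks per library, and the peak names begin with MACS. The scale of the deposited score, the aligner, the duplicate handling, the threshold and any use of the input are not given in the sources used here. The submitters' processing notes name hg38. Pol II was precipitated with the ChIP-IT Express Kit and sequenced on a BGISEQ-500 instrument, per the study's methods.

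Peaks were joined to the protein-coding genes of GENCODE release 44 on chromosomes 1 to 22, X and Y. A shared peak had at least 1 bp in common. Shares have 95% Clopper-Pearson intervals. The members and the gene lists were chosen with earlier results of these data known. Named genes were the members, protein-coding genes starting within 2 kb of a member peak, and, of the other lists, genes with a shLacZ start peak and the 3 best-ranked in shRRN3. Alternatives were other windows, score limits, overlap rules, start definitions and a reduced shRRN3 list. The window code was tested on simulated data and its overlaps were checked against bedtools 2.31.1. Scripts ran in Python 3.11.15 with scipy 1.17.1, pandas 2.3.3 and numpy 2.4.6, and plots were drawn with matplotlib 3.10.9.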

Additional observations from a re-analysis of the deposited data

How the results depend on the processing

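Of 68 values under alternatives, for 22 counts, 53 stayed within 1.5 times of the reported count and 15 did not. With a score of at least 66.05, the median of the shLacZ list, 0 members had a peak or start peak in shLacZ, at 0 peaks, and 0 regulators had a start peak there. In shRRN3 that limit left 1 gene of the ATG9, ATG2 and WIPI group. Since scores depend on depth, the limit need not mean the same in both lists. The reduced shRRN3 list gave 2 members with a peak, 2 peaks and 2 members with a start peak, 2 regulators, 1 gene of the ATG9, ATG2 and WIPI group and 2 conjugation genes, and by construction it drops the lower-scoring peaks of 1 list only. The start-peak counts of the reduced list have no share of all genes beside them. Within 0.5 kb of the outer bound, 0 members had a start peak in shLacZ. With exons of the canonical transcript, the shLacZ midpoint moved from exon (then 0) to upstream (then 1), and 3 shRRN3 midpoints were in exons. The canonical start and the nearest canonical start were alternatives chosen after the data were seen. No paired analysis was possible because there was 1 library per group. The limits are the 10 genes, the single library per hairpin and the unknown depth, so a missing peak shows neither absent Pol II nor a difference between hairpins.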
